A study of Mus musculus with 11 samples.

Results

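The capillary and apelin genes of endothelial cells in mouse perigonadal white adipose tissue (pgWAT) were described here through 8 genes, Car4, Cd300lg, Rgcc, Aplnr, Aqp1, Apln, Kit and Esm1, out of 23507 gene rows. Their reads were examined in single cells that passed an endothelial gate, defined as a sum of Pecam1, Cdh5 and Kdr of at least 100 CPM (counts scaled to 1000000 gene reads per cell) with Pdgfra under 20 CPM. This gate held 672 of 3261 cells (20.6%). The 8 genes were selected on their detection and co-detection in these cells and on their differences between plates, so those values are given below as a description and carry no test.

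The study profiled single cells of the stromal vascular fraction, the non-adipocyte part of dissociated fat, by Smart-seq2, a plate method that reads whole transcripts and has no molecular identifiers. All mice were untreated adults carrying the Pdgfrb-eGFP transgene, in which GFP follows the promoter of the mural and fibroblast gene Pdgfrb, on a C57BL6/J background. Male cells in the gate came from mouse 1 (190 cells, from a CD31pos sort on plate 171 and a PDGFRBpos sort on plate 172) and mouse 8 (38 cells, PDGFRBpos_and_CD31pos, plate 344). Female cells came from mouse 2 (216 cells, of which 215 on plate 874, PDGFRBneg_CD31pos), mouse 5 (59 cells, PDGFRBpos, plate 843) and a mouse id shared by mice 6 and 7 (167 cells, of which 164 on plate 43, PDGFRBneg_CD31pos_and_viceversa), and 2 further gated cells came from mouse 3. No plate held both sexes, so sex and plate cannot be told apart in any value that compares the sexes. The PDGFRBpos sort was shared by male plate 172 and female plate 843, and the other sorts differed between the sexes.

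Capillary endothelial cells exchange water, gases and fatty acids between blood and adipocytes. Car4 encodes a carbonic anhydrase anchored on the luminal surface, Cd300lg an immunoglobulin-type surface protein with a mucin-like domain, Rgcc a regulator of the cell cycle and of complement responses, and Aqp1 a water channel. Apelin, the product of Apln, is a secreted peptide that acts on the G protein-coupled receptor encoded by Aplnr, and in growing vessels Apln and Esm1, which encodes the proteoglycan endocan, are known from tip cells at the sprouting front. Kit encodes the receptor for stem cell factor and is best known from mast cells and blood progenitors.

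All 8 are annotated as protein-coding in GENCODE vM21 (GRCm38), and counts are per gene. Of the capillary genes, Car4 (ENSMUSG00000000805) at chr11:84957786-84966044 on the plus strand and Cd300lg (ENSMUSG00000017309) at chr11:102041509-102055620 on the plus strand share a chromosome, and Rgcc (ENSMUSG00000022018) at chr14:79288756-79301645 on the minus strand and Aqp1 (ENSMUSG00000004655) at chr6:55336432-55348555 on the plus strand lie elsewhere. Of the apelin genes, Apln (ENSMUSG00000037010) at chrX:48025146-48034853 on the minus strand is the X-linked one, and Aplnr (ENSMUSG00000044338) at chr2:85136225-85139923 on the plus strand encodes its receptor. The last are Kit (ENSMUSG00000005672) at chr5:75574916-75656722 on the plus strand and Esm1 (ENSMUSG00000042379) at chr13:113209659-113218098 on the plus strand.

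The gated cells carried a median of 526614 gene reads, with medians per mouse between 280497 in mouse 8 and 839722 in mouse 2. Their median gate sum was 1426 CPM, the lowest gated cell had 104.8 CPM and the highest cell under the limit had 97.4 CPM, and 13 cells past the limit were left out for Pdgfra. All 10 endothelial markers examined were measured, and 1 of them had a median of 0. Markers of other cells were also present. At least 100 CPM of summed adipocyte transcripts was found in 447 cells, of pericyte markers in 128, of lymphatic markers in 126, of smooth muscle markers in 110, of adipose stem cell markers in 33, of macrophage markers in 13, of mast cell markers in 9, of Ptprc in 3 and of epithelial markers in 1. Shorter lists of 4 adipocyte, 3 lymphatic and 6 mural genes gave 353, 24 and 142 cells. Where cells with adipocyte, lymphatic, mural, macrophage or epithelial markers are left out below, shorter lists were used unless the full list is named. On the 6 plates with at least 26 gated cells, ribosomal RNA genes took between 27.7% (plate 43) and 60.2% (plate 172) of the median gated cell, so levels are given as RPM, reads scaled to 1000000 reads outside annotated rRNA genes.

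6 of the 8 genes had an upstream window in the RefSeq table (GRCm38.p6), and the windows of the 2 pairs that come back below, Car4 with Rgcc and Apln with Kit, are shown 5′ to 3′ over the 250 bases before the annotated start. Capitals mark matches, on either strand, to AGGAAG, the core bound by ETS factors, or to GGGCGG, the GC box bound by Sp1.
Car4, chr11:84957504-84957753, plus strand: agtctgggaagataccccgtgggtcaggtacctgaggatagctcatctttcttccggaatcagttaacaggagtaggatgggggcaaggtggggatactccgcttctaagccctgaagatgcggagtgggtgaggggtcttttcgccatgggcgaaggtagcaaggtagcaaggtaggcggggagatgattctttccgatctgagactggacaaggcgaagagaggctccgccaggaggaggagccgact
Rgcc, chr14:79301636-79301885, minus strand: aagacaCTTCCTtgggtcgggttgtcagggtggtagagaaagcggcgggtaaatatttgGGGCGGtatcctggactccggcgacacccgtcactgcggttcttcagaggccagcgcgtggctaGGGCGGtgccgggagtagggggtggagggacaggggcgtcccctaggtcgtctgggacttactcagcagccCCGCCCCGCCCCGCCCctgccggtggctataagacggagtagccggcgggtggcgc
Apln, chrX:48034854-48035103, minus strand: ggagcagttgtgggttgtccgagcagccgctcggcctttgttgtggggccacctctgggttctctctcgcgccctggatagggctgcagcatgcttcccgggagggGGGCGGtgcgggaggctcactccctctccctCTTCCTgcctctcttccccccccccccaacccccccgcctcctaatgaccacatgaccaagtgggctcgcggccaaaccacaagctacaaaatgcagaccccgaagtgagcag
Kit, chr5:75574737-75574986, plus strand: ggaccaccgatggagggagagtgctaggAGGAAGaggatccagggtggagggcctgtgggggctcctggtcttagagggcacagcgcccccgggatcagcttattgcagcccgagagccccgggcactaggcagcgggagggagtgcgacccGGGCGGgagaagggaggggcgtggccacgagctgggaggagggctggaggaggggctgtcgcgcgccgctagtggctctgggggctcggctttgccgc
Rgcc, Apln and Kit each held 1 match to AGGAAG, and so did Aqp1, against 29.5% of all 32851 windows. GC boxes stood once each in Apln, Aqp1 and Kit and 5 times in Rgcc, where 3 of them lie in 1 run and share end bases, against 32.7% of all windows. Car4 and Esm1 held neither of these exact sequences. None of the 6 windows held ACGTG, a form of the hypoxia response core, found in 16.6% of all windows. Other forms of that core were not searched. None held the TATA box letters TATAAA, found in 12.4%. The forkhead letters TGTTTAC (3.17%) and the GATA factor letters AGATAA (9.99%) were not in them either. The windows of Kit, Rgcc, Apln, Aqp1 and Car4 were richer in GC (70.8%, 66.8%, 65.2%, 62% and 56.4%) than the median window (52.4%), and that of Esm1 was poorer (44.0%). Aplnr and Cd300lg are named only.

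The 8 genes fell into widely and rarely detected ones. Taking a cell as positive at 20 CPM, Cd300lg was positive in 621 of the 672 cells (92.4%, exact 95% interval 90.1% to 94.3%), Rgcc in 541 (80.5%, 77.3% to 83.4%), Car4 in 531 (79.0%, 75.7% to 82.0%) and Aqp1 in 466 (69.4%, 65.7% to 72.8%). The apelin receptor Aplnr was positive in 257 cells (38.2%, 34.5% to 42.0%). Kit was positive in 92 cells (13.7%, 11.2% to 16.5%), Apln in 55 (8.19%, 6.22% to 10.5%) and Esm1 in 20 (2.98%, 1.83% to 4.56%). The intervals cover counting error only. The rare genes were also concentrated: the 10 cells with the highest RPM held 80.9% of the Esm1 level, 66.9% of the Apln level and 41.7% of the Kit level, against 17.7% for Aplnr, 10.7% for Aqp1 and between 6.02% and 7.97% for Cd300lg, Rgcc and Car4.

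Per kilobase of exon, in RPM outside rRNA genes, the level was 1219 for Rgcc, 1031 for Cd300lg, 1004 for Aqp1 and 656.2 for Car4, then 104.9 for Aplnr, 27.1 for Apln, 15.4 for Kit and 7.27 for Esm1. Over the 5 mice they ran from 488.5 to 1843 for Rgcc, 510.8 to 1445 for Cd300lg, 611.0 to 3316 for Aqp1 and 186.3 to 1112 for Car4, so the order within these 4 lay inside the spread between mice. The ranges of Aplnr (52.5 to 330.6) and Apln (2.83 to 66.8) overlapped, and those of Apln, Kit (1.40 to 37.1) and Esm1 (0.0664 to 16.6) overlapped as well. Every range of the 4 widely detected genes lay above the ranges of Apln, Kit and Esm1.

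Nearly all reads of 5 genes sat inside the endothelial gate: 99.0% of the Aplnr reads of the whole table, 97.8% of Aqp1, 96.5% of Car4, 95.5% of Rgcc and 95.3% of Cd300lg. The other 3 had a second source. Of the Kit reads, 68.9% lay in the gate and 26.1% in 12 cells outside every gate that carried mast cell markers, 10 of which were Kit-positive. Of the Esm1 reads, 57.9% lay in the endothelial gate and 32.0% in the stem cell gate (Pdgfra of at least 20 CPM, endothelial sum under 20 CPM), and for Apln the same shares were 75.6% and 19.7%. The stem cell gate was much larger, with 1844 cells. Its Apln-positive cells numbered 55, the same as in the endothelial gate, but they made up 2.98% of its cells, and the Apln level there was 6.15 RPM against 85.2.

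Other members were also read in stem cells at low level, at a median of 710909 gene reads per cell. Cd300lg was positive in 5.37% of them, Rgcc in 3.09%, Car4 in 2.44%, Esm1 in 0.922% and Aqp1 in 0.813%, while Kit was positive in 2 cells and Aplnr in 1. In 80 mural cells, gated on Rgs5, Kcnj8, Abcc9 and Myh11, Cd300lg was positive in 17.5% and Aqp1 in 10%, and Apln, Aplnr and Esm1 in 0 of 80, which allows a share of up to 4.51%. In 121 macrophage-gated cells Cd300lg was positive in 14.1% and Apln, Car4 and Esm1 in 0, which allows up to 3.00%. The endothelial gate and these gates were built on other genes, and their differences carry no test here.

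**Figure D1:**
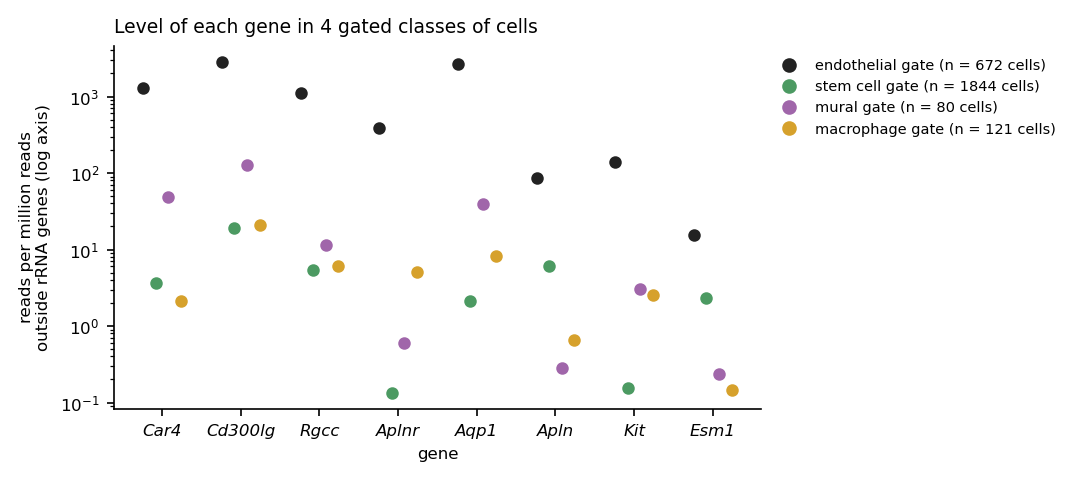
Level of each of the 8 genes, in RPM outside rRNA genes on a log axis, in the endothelial, stem cell, mural and macrophage gates (all cells of a gate pooled, no error bars). Every gene was highest in the endothelial gate, and the gap was smallest for Esm1, at 15.3 RPM against 2.33 in the stem cell gate.

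Across single cells the 8 genes formed 3 sets. Pearson r on log2(CPM + 1), centred within plate, was 0.48 for Car4 with Cd300lg, 0.43 for Car4 with Rgcc and 0.38 for Cd300lg with Rgcc over the 672 cells. Aplnr and Aqp1 formed a second set at 0.45. Apln and Kit formed the third at 0.31, with Esm1 at 0.18 to Apln and 0.05 to Kit. Every other pair lay between -0.04 and 0.16. These cells share libraries, depth and mice, and the values are descriptions. Over the 5 plates with at least 30 gated cells the range was 0.32 to 0.65 for Car4 with Cd300lg, 0.40 to 0.61 for Aplnr with Aqp1 and -0.05 to 0.49 for Apln with Kit, so the sets of Car4 and of Aplnr were seen on every such plate and that of Apln was not.

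**Figure D2:**
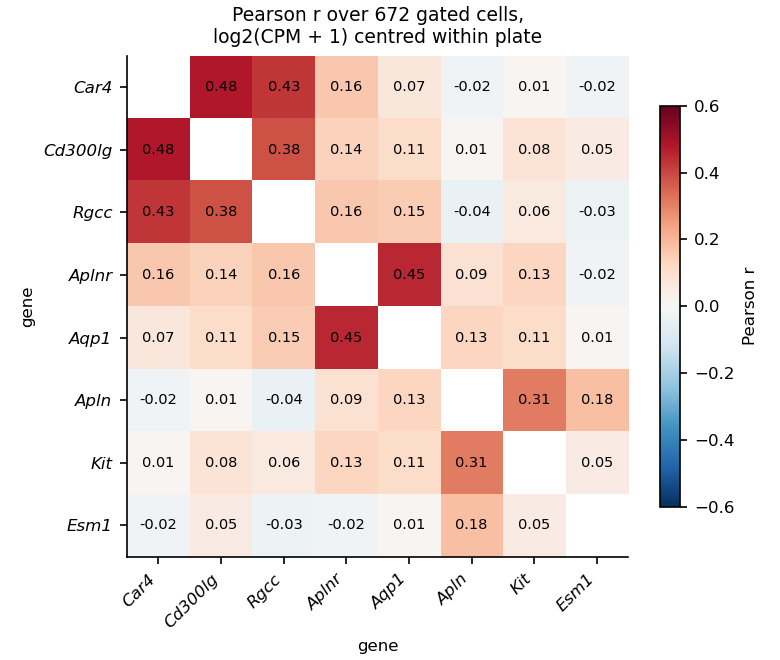
Pearson r between the 8 genes over 672 endothelial-gated cells, on log2(CPM + 1) centred within plate (colour scale from -0.6 to 0.6). The squares for Car4, Cd300lg and Rgcc (0.38 to 0.48) and for Aplnr and Aqp1 (0.45) stand out, followed by Apln with Kit (0.31).

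The genes most like each member were sought among 10488 genes read in at least 10% of gated cells. They rest on the same cells and the same r as the sets, so they describe the sets and are no separate check of them. The genes nearest to Cd300lg were Cd36 (r = 0.60), the fatty acid translocase, Gpihbp1 (0.51), which anchors lipoprotein lipase to the capillary wall, and Fabp4 (0.50), a fatty acid binding protein. Those nearest to Rgcc were the same genes (Cd36 0.55, Fabp4 0.50, Gpihbp1 0.47), and Car4 followed with Cd300lg (0.48), Cd36 (0.48) and Fabp4 (0.44). Aplnr was nearest to Aqp1 (0.45), Adgrl4 (0.29), an adhesion receptor of endothelium, and Palmd (0.27). Aqp1 was nearest to Aplnr (0.45), the chemokine gene Cxcl9 (0.35) and Sult1a1 (0.31), a sulfotransferase. Apln and Kit were nearest to each other and both had Prnd next (0.26 and 0.27), then Mest (0.25) for Apln and Fscn1 (0.23), which encodes an actin-bundling protein, for Kit. For Esm1 no gene passed 0.18, which is weak in counts this sparse.

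The summed CPM of the other 15 capillary genes (among them Cd36, Fabp4, Gpihbp1 and Lpl) was set against each member in the same cells. This list was chosen with earlier results of these data known, and in its sum the most abundant genes weigh most. The r of this sum was 0.58 with Cd300lg, 0.57 with Rgcc and 0.49 with Car4. It was 0.22 with Aqp1, 0.17 with Aplnr, 0.04 with Kit, 0.03 with Esm1 and -0.03 with Apln.

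In detection, the widely found set was nested. Of Car4-positive cells, 97.7% were also positive for Cd300lg and 89.6% for Rgcc, against 72.3% and 46.1% of Car4-negative cells. Car4, Cd300lg and Rgcc were all positive in 468 cells (69.6%). The most common patterns were these 3 with Aplnr and Aqp1 (136 cells, 20.2%), with Aqp1 alone (125 cells, 18.6%) and by themselves (108 cells, 16.1%), while 15 cells (2.23%) were positive for none of the 8 and 2 cells for all. Lymphatic markers moved against this set. At least 100 CPM of them was found in 31.2% of Car4-negative and 15.4% of Car4-positive cells. For Rgcc-negative and Rgcc-positive cells the shares were 32.1% and 15.5%. Adipocyte transcripts moved with the set. At least 100 CPM of adipocyte transcripts was found in 377 of 531 Car4-positive and 70 of 141 Car4-negative cells, and in 70.6% of Rgcc-positive and 49.6% of Rgcc-negative cells. Without cells carrying mural, lymphatic, macrophage or epithelial markers by the shorter lists, the share of Car4-positive cells was 83.3% of 509. Without cells carrying adipocyte transcripts by the shorter list it was 72.7% of 319, and cells past 100 CPM only by the full lists stayed in. The part of these markers in the nesting was not tested.

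Aqp1 was positive in 232 of 257 Aplnr-positive cells (90.3%) and in 234 of 415 Aplnr-negative cells (56.4%). The order held in every mouse: 93.9% against 55.2% in mouse 1, 20 of 20 cells against 61.1% in mouse 8, 89.1% against 75.0% in mouse 2, 85.2% against 43.8% in mouse 5 and 86.8% against 41.2% in mice 6/7. Aplnr-positive cells were deeper, with a median of 634119 gene reads against 481604. With each cell thinned to 100000 reads the shares were 89.7% and 60.6%. Of the 466 Aqp1-positive cells 49.8% were positive for Aplnr. This share counts the same 232 cells over a larger total, so its being lower carries no further information.

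Kit was positive in 27 of 55 Apln-positive cells (49.1%) and in 65 of 617 Apln-negative cells (10.5%). By mouse the shares were 62.5% against 18.1% in mouse 1, 44.4% against 12.1% in mouse 2, 22.2% against 17.2% in mouse 8 and 66.7% against 3.05% in mice 6/7, where only 3 cells were Apln-positive. Mouse 5 had 1 Apln-positive cell, which was Kit-negative. After thinning, Kit was positive in 29 of 58 and in 72 of 614 cells (11.7%). Esm1 was positive in 14.5% of Apln-positive and 1.94% of Apln-negative cells, and 8 of the 20 Esm1-positive cells were positive for Apln.

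Cells with the ligand also carried the capillary genes. Among Apln-positive cells 74.5% were positive for Car4, 94.5% for Cd300lg and 78.2% for Rgcc, against 79.4%, 92.2% and 80.7% of Apln-negative cells. Ligand and receptor met in 32 cells, which is 58.2% of the Apln-positive cells, against 36.5% of Apln-negative cells, and 92.7% of Apln-positive cells were positive for Aqp1, against 67.3%. Apln-positive cells were deeper, with a median of 674031 gene reads against 518420, and after thinning the Aplnr shares were 58.6% and 38.6%. Kit-positive cells resembled them, with 56.5% positive for Aplnr and 85.9% for Aqp1, against 35.3% and 66.7% of Kit-negative cells. Mast cell markers were at 100 CPM or more in 3 of the 55 Apln-positive cells and 4 of the 92 Kit-positive cells, and in the 663 gated cells below that limit 88 were Kit-positive and 52 Apln-positive.

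**Figure D3:**
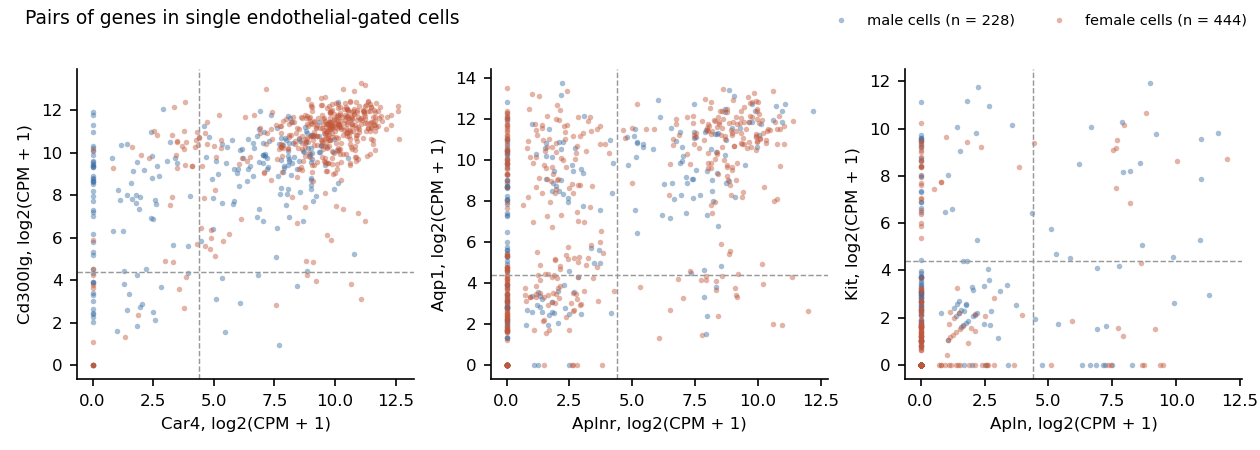
Car4 with Cd300lg, Aplnr with Aqp1 and Apln with Kit in single endothelial-gated cells, as log2(CPM + 1), 1 point per cell (228 male, 444 female), with dashed lines at 20 CPM. Most cells lie in the upper right corner for Car4 with Cd300lg (519 cells), nearly all Aplnr-positive cells lie above the Aqp1 line (232 of 257), and 27 cells pass both lines for Apln and Kit.

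Between the sexes, Car4 showed the widest gap of the common genes. The share of Car4-positive cells was 57.9%, 57.7% and 60.5% on the male plates 171, 172 and 344, and 91.6%, 90.2% and 84.7% on the female plates 874, 43 and 843. The male and female plates did not overlap. For Cd300lg the shares were 87.2%, 80.8% and 81.6% on the male plates and 98.6%, 95.7% and 91.5% on the female ones, again without overlap, although by mouse and outside rRNA the shares overlapped (91.4% and 84.2% in males against 99.5%, 85.9% and 97.0% in females). Rgcc was positive in 65.2%, 69.2% and 81.6% of male and 87.0%, 90.2% and 81.4% of female cells, and there plate 344 lay above plate 843. Cells positive for all 3 made up 43.9%, 46.2% and 57.9% of the male plates and 83.3%, 82.3% and 78.0% of the female plates.

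The rare set ran the other way. Apln was positive in 14.0%, 3.85% and 23.7% of cells on the male plates and in 8.37%, 1.83% and 1.69% on the female plates, in the same plate order. Kit was positive in 25.0%, 15.4% and 18.4% of male and 14.9%, 4.27% and 1.69% of female cells. Esm1 was positive in 6.71%, 3.85% and 10.5% of male cells and in 1.40%, 0.610% and 0 of 59 female cells, the last allowing a share of up to 6.06%. At this limit the male plates lay above the female ones for Kit and Esm1, while for Apln plate 172, with 1 positive cell of 26, lay below plate 874. The order for Kit depended on the limit. Counting any read, plates 172 and 344 were at 23.1% and 21.1% against 46.0% on plate 874. Counting any read in cells thinned to 100000 reads, they were at 15.4% and 18.4% against 21.4%. For Esm1 the male plates lay above the female ones under both of these settings. Aplnr (34.8%, 30.8% and 52.6% against 42.3%, 32.3% and 45.8%) and Aqp1 (69.5%, 61.5% and 81.6% against 80.9%, 56.7% and 62.7%) overlapped between the sexes.

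**Figure D4:**
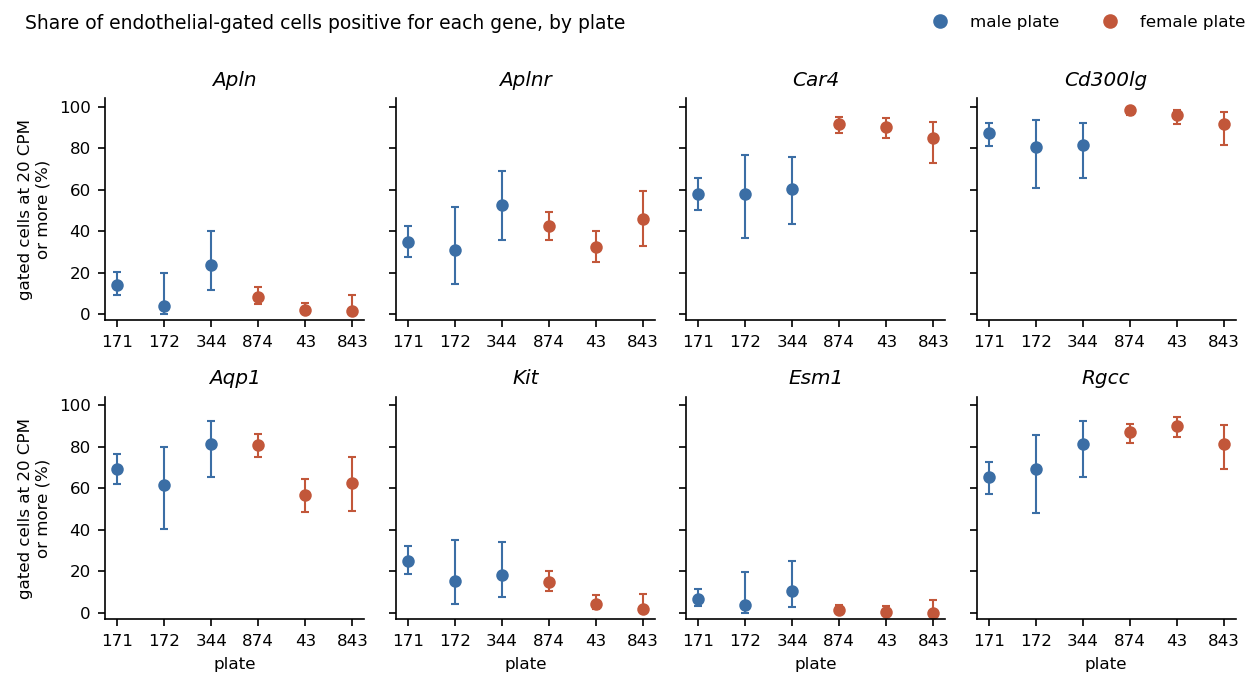
Percent of endothelial-gated cells positive (20 CPM or more) for each gene on the 6 plates with at least 26 gated cells, with exact 95% intervals for counting error. The 3 male plates lie at 57.7% to 60.5% for Car4, below the 3 female plates at 84.7% to 91.6%, and at this limit above the female plates for Kit and Esm1.

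Counts were then summed over the gated cells of each mouse and scaled by the trimmed mean of M values (TMM). Log2 folds here and below are from edgeR's quasi-likelihood fit. The SE after ± is the absolute log2 fold divided by the square root of that test's F value. With few residual degrees of freedom a fold of several SE can still miss the limit for a call. Car4 was at 248.9 and 260.1 TMM CPM in the male mice 1 and 8 and at 724.7, 830.1 and 1066 in the female mice 2, 5 and 6/7, a log2 fold of -1.78 ± 0.42 (SE) for males against females. Rgcc was at 295.0 and 495.2 in males and 631.0, 631.5 and 824.9 in females (-0.82 ± 0.44). Both males lay below every female for these genes. Adipocyte markers lay in the same order, with a summed level of 1132 and 598.4 RPM in the male mice and 2722, 2065 and 2699 in the female mice. Without the cells carrying adipocyte transcripts by the shorter list the folds were -1.83 for Car4 and -0.92 for Rgcc. Apln was at 102.8 and 149.3 in males and 39.7, 4.74 and 4.42 in females (2.95 ± 0.95), Kit at 217.3 and 62.6 in males and 56.5, 6.63 and 6.89 in females (2.58 ± 1.01), and Esm1 at 22.9 and 15.2 in males and 5.39, 0.0741 and 3.59 in females (2.65 ± 1.29). Both males lay above every female for these 3, but for Kit mouse 8 and mouse 2 were close, and on the scale outside rRNA they overlapped (88.1 in mouse 8, 112.0 in mouse 2).

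The folds of the remaining members rested on mouse 8. Aplnr was at 127.9 in mouse 1 and 869.1 in mouse 8, against 214.1, 276.2 and 148.6 in the females (1.23 ± 0.72), and without mouse 8 its fold was -0.73. Aqp1 was at 1081 and 6188 against 1476, 1605 and 782.4 (1.5 ± 0.69), and without mouse 8 its fold was -0.25. Cd300lg was at 919.5 and 2238 against 1506, 1866 and 1929 (-0.16 ± 0.48), with values between -0.94 and 0.33 when 1 mouse was left out. Groups without overlap were common in this comparison: both males lay above every female for 12.7% of the 8820 genes tested and below for 14.4%, and since these genes were picked partly for their plate differences nothing is read from their count.

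Across all genes 2 of 8820 (0.0227%) were called different between the sexes by edgeR's quasi-likelihood test (adjusted p below 0.05 and a fold above 2.6), and 704 passed 0.05 before adjustment. The calls were Xist, the RNA that silences 1 X chromosome in females (log2 fold -8.67 ± 0.74, adjusted p = 0.0266), and its antisense partner Tsix (-8.63 ± 0.84, adjusted p = 0.0344), whose reads cannot be told apart without strand. None of the fixed lists held a call. Of 17 tested tip and sprouting genes 15 lay higher in males (median log2 fold 1.08, against 0.02 over all genes), with Dll4 at 2.30 ± 0.64 and Angpt2 at 1.91 ± 0.52. Of 15 capillary genes 9 lay lower and 6 higher in males (median -0.24), with Fabp4 at -1.06 ± 0.45 and Tcf15 at 1.12 ± 0.50. With RLE size factors, another scaling, the capillary counts were the same. There 4190 of all 8820 genes lay lower in males and 4630 higher. Of 6 adipocyte markers 4 lay lower in males as well (median -0.91), and their part in the level of Fabp4 was not tested. All 6 tested genes of the apelin system lay above 0 (median 1.20), and so did all 7 rows of lymphatic markers (median 3.33), whose summed level was 4545 and 14570 RPM in the male mice and 110.0, 3041 and 896.3 in the female mice. With 2 mice against 3 an exact permutation test of 1 value cannot go below p = 0.2.

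To compare cells with and without the ligand, the receptor and Kit, the gated cells of each mouse were split at 20 CPM of the gene and summed, with the mouse as a block. The members were picked partly for their co-detection in these cells, so their values in the splits are descriptions and carry no test. The Apln split had at least 10 cells in each arm in mouse 1 (24 and 166 cells) and mouse 2 (18 and 198 cells). Kit was at 487.1 TMM CPM in Apln-positive and 157.9 in Apln-negative cells of mouse 1, and at 242.5 and 35.0 in mouse 2 (log2 fold 2.21 ± 0.39). Esm1 was at 105.2 and 8.14 in mouse 1 and 49.6 and 0.956 in mouse 2 (4.69 ± 0.80). Aplnr was at 256.1 and 97.7 in mouse 1 and 355.5 and 183.5 in mouse 2 (1.17 ± 0.26). These 3 genes were higher in the Apln-positive arm of both mice, which was also the case for 26.9% of the 7322 genes tested.

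The capillary members stayed near 0 across the Apln split, with log2 folds of 0.29 ± 0.26 for Aqp1, -0.09 ± 0.39 for Cd300lg, -0.39 ± 0.25 for Rgcc and -0.41 ± 0.23 for Car4. Of the tested genes 0 (0%) were called, with 1 residual degree of freedom, while 385 passed 0.05 before adjustment. By edgeR's likelihood ratio test 134 were called and by DESeq2 162. Of 17 tip and sprouting genes other than the members 14 lay higher in Apln-positive cells (median log2 fold 0.59, against -0.09 over all genes), with Nid2, a basement membrane nidogen, at 2.54 ± 0.87, the vasodilator peptide gene Adm at 2.20 ± 0.36 and the angiopoietin Angpt2 at 2.03 ± 0.33. Of 12 arterial genes 11 lay lower (median -3.02), with the connexin Gja4 at -3.93 ± 1.95, and of 9 venous genes 7 lay lower (median -0.60). The 15 capillary genes had a median of -0.05. Of 4 pericyte markers 4 lay lower too (median -2.61), and their part in the result was not tested.

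The Aplnr split used all 5 mice. Aqp1 was at 1657 TMM CPM in Aplnr-positive and 626.4 in Aplnr-negative cells of mouse 1, 8414 and 3135 in mouse 8, 1867 and 893.4 in mouse 2, 2801 and 571.6 in mouse 5 and 1456 and 497.0 in mice 6/7. It was higher in the positive arm of every mouse, with a log2 fold of 1.54 ± 0.18. That order was the case for 4.06% of the 8717 genes tested (lower in every mouse for 4.84%). Since the members were picked partly for co-detection, nothing is read from the place of Aqp1 in that share. Kit followed with 1.61 ± 0.65 and was higher in 4 mice, with mouse 1 at 204.2 and 224.0. Apln itself had a log2 fold of -1.29 ± 0.88, although 12.5% of Aplnr-positive cells were Apln-positive against 5.54% of negative cells, so positive cells were more frequent and reads fewer. The log2 folds of the other members were 0.21 ± 0.16 for Car4, 0.14 ± 0.11 for Cd300lg, 0.07 ± 0.13 for Rgcc and 0.68 ± 1.75 for Esm1. By detection, Car4 was positive in 87.55% of Aplnr-positive and 73.7% of Aplnr-negative cells, and Rgcc in 90.7% and 74.2%. Both were higher in all 5 mice. For Cd300lg the shares were 95.7% and 90.4%, higher in 4 mice, and for Esm1 3.50% and 2.65%, higher in 2 mice. After thinning, the Car4 shares were 86.0% and 73.6%.

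The 5 calls of the Aplnr split (0.0574% of the genes tested, edgeR's quasi-likelihood test) were all lower in Aplnr-positive cells, and 366 genes passed 0.05 before adjustment. They were Fgl2 (log2 fold -9.52 ± 0.65, adjusted p = 0.00716), both rows of the lymphatic chemokine Ccl21a (-9.54 ± 0.85, adjusted p = 0.0170, and -10.01 ± 0.80, adjusted p = 0.0184), Ccl21b (-9.13 ± 0.70, adjusted p = 0.00854) and Gm21541 (-11.33 ± 1.01, adjusted p = 0.0283), the last named after its values were seen. The Ccl21 rows are near-identical copies between which reads may be split. Their reads came from few cells, since the 10 highest cells held between 73.4% and 82.0% of each gene's summed CPM, and Fgl2 was positive in 21 of 413 Aplnr-negative and 0 of 257 Aplnr-positive cells. All 7 rows of lymphatic markers lay lower in Aplnr-positive cells (median -7.74), with Prox1, the lymphatic master regulator, at -7.72 ± 1.16 and Lyve1 at -9.16 ± 1.11, neither of which was called. Without gated cells with at least 100 CPM of the full list of lymphatic markers 0 genes were called, and without mouse 5 also 0.

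Among the other lists, 13 of 16 capillary genes lay higher in Aplnr-positive cells (median 0.24, against 0.00 over all genes), with Gpihbp1 at 0.24 ± 0.11 and Cd36 at 0.18 ± 0.10. Of 12 arterial genes 10 lay lower (median -1.45), with Gja4 at -4.71 ± 1.58 and Hey1 at -1.70 ± 0.52. Tip and sprouting genes were even (9 higher, 9 lower, median 0.05), and so was the apelin system (3 and 3, median -0.05). None of these genes was called.

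The Kit split again rested on mouse 1 (45 and 145 cells) and mouse 2 (32 and 184 cells). Apln was at 329.9 TMM CPM in Kit-positive and 27.9 in Kit-negative cells of mouse 1, and at 163.7 and 12.6 in mouse 2, a log2 fold of 3.63 ± 0.30. Aplnr (0.86 ± 0.31) was higher too, which in both mice was the case for 27.3% of the 7400 genes tested. Aqp1 (0.42 ± 0.28), Cd300lg (0.19 ± 0.29), Rgcc (0.18 ± 0.26) and Car4 (-0.10 ± 0.28) lay near 0. Esm1 was lower in the sums (-1.09 ± 0.87, 12.3 against 25.1 in mouse 1 and 2.56 against 5.73 in mouse 2), although 6.52% of Kit-positive cells were Esm1-positive against 2.41% of Kit-negative cells. Over 13 alternatives the Esm1 fold ran from -1.31 to 1.6, so its direction depended on the processing.

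Of the genes tested in the Kit split 8 were called (0.108%), of which Apln was the only one higher (0.0135% of the genes tested) and is given above as a description. The other 7 (0.0946%) were lower in Kit-positive cells, and 500 genes passed 0.05 before adjustment. The connexin Gja4, an arterial gene, was at 0.851 TMM CPM in Kit-positive and 73.9 in Kit-negative cells of mouse 1 and at 0.130 and 20.1 in mouse 2 (log2 fold -6.81 ± 0.75, adjusted p = 0.0271 by edgeR's quasi-likelihood test), and was positive in 0 of 77 Kit-positive and 33 of 329 Kit-negative cells. Slc6a6, the taurine transporter, followed at -4.98 ± 0.54 (adjusted p = 0.0271), and Serping1, the C1 inhibitor gene, at -4.37 ± 0.41 (adjusted p = 0.0144), the latter named after its values were seen. The other 4 were the globin genes Hba-a1, Hba-a2, Hbb-bs and Hbb-bt (log2 folds between -6.55 and -6.04), which are near-identical within each pair and of whose summed CPM 10 cells held 97.6% to 97.9%. No gene was called under RLE size factors, at a split of 5 or 100 CPM or with no replicate block, and 7 were called with library totals. Markers of other cells moved with this split: 4 of 4 pericyte markers (median -1.85) and 3 of 3 tested smooth muscle markers (median -1.43) lay lower in Kit-positive cells, as did Col1a1 (-3.82 ± 1.65) and the macrophage gene Cd68 (-4.08 ± 1.72). None of these was called, and their part in the result was not tested.

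The Kit split shares its mice, and 23 cells positive for both genes, with the Apln split. Of 18 tip and sprouting genes 14 lay higher (median 0.66, against -0.01 over all genes), with Adm at 1.98 ± 0.37 and Angpt2 at 1.66 ± 0.34, and of 12 arterial genes 10 lay lower (median -2.82), of which only Gja4 was called. Of 15 capillary genes 11 lay higher (median 0.10), while Plvap, the diaphragm protein of fenestrae, was at -5.06 ± 1.04 and was not called. The 10 tested genes of Kit signalling were near even (6 higher, 4 lower, median 0.13), with the ligand gene Kitl at -0.11 ± 0.38 and the kinase gene Lyn at 0.03 ± 0.35. Of 10 cell cycle genes 5 were tested between the sexes, 3 in the Apln split and 4 each in the Aplnr and Kit splits, and none was called. Their medians were 0.34, 0.42, 0.11 and 0.00. Top2a, a topoisomerase of dividing cells, was at 7.29 ± 0.86 in the Apln split and higher in both mice, with an adjusted p of 0.913 by edgeR's quasi-likelihood test. Mki67, Ccnb1, Ccna2, Cdk1 and Birc5 were below the filter in every comparison. Among aquaporins and carbonic anhydrases other than Aqp1 and Car4 only 3 of 14 genes were tested in each comparison, and none was called.

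**Figure D5:**
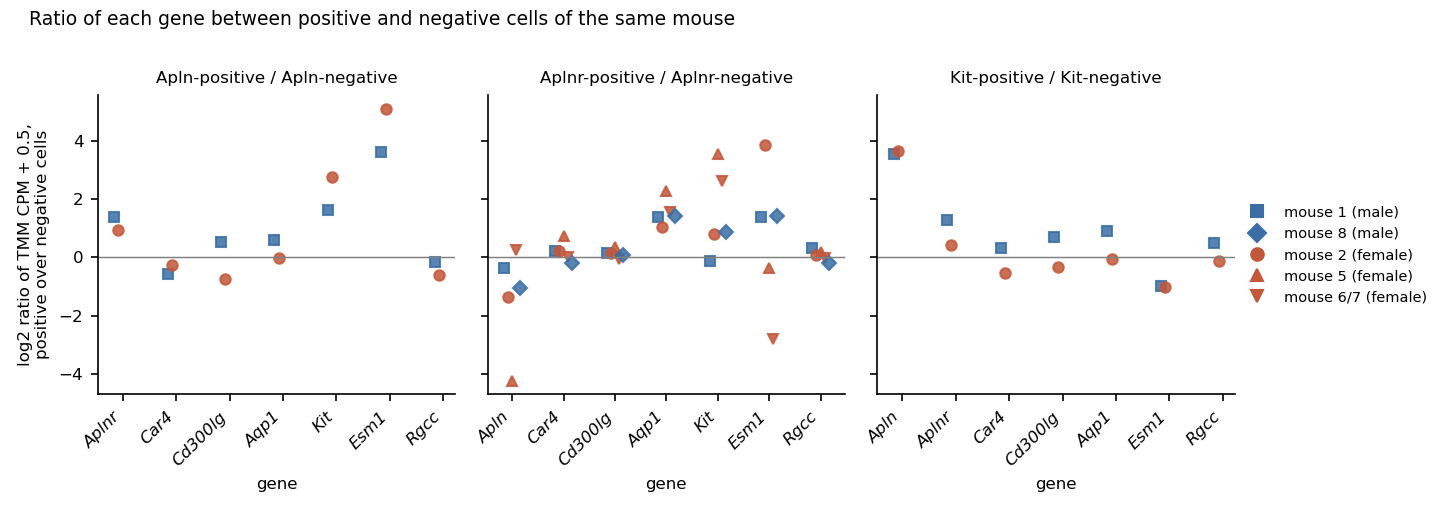
Log2 ratio of TMM CPM (+ 0.5) between positive and negative cells of the same mouse for the other 7 members, 1 point per mouse, in the Apln, Aplnr and Kit splits. Aqp1 lies above 0 in all 5 mice of the Aplnr split, and Apln at about the same ratio in both mice of the Kit split, while Esm1 and Apln scatter widely in the Aplnr split.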

How the data were processed

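Smart-seq2 libraries of sorted pgWAT stromal cells were made by the authors in 384-well plates after a CD45-negative gate. Per the labels and methods, reads were aligned to mm10 with STAR and quantified with Salmon (versions not given in the sources used here), poor cells and cells with signs of another class were removed, and raw counts per gene and cell were deposited. No doublet caller was run here. All 3261 columns of cells were used (0 columns of no sample) and ERCC rows were left out of the totals. Gene positions are those of GENCODE vM21.

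The members and gene lists were chosen with earlier results of these data known. Gated counts were summed per mouse id with at least 10 cells and tested with edgeR 4.0.16 (R 4.3.3; quasi-likelihood test, TMM, a sum above 600 counts required in 2 or more mice or arms, Benjamini-Hochberg over all genes tested), with the mouse as a block in the splits. Sums ranged from 7848239 to 201731547 reads. The fits left 3 residual degrees of freedom between the sexes, 1 each in the Apln and Kit splits and 4 in the Aplnr split. The pairing comes from both sums of a block being cells of 1 mouse id. Deviations of the 2 sums from their arm means correlated at 0.23 (Apln), 0.35 (Kit) and 0.09 to 0.38 (Aplnr). Whether mice of 1 sex came from separate litters or days is not known, so p-values between the sexes measure the spread between these mice. In the splits, p-values rest on how far the difference between the 2 arms varied from mouse to mouse. Reads have no molecular identifiers, and shares carry exact Clopper-Pearson 95% intervals for counting error. Named genes were the members, the called genes of the lists with up to 3 others each, up to 6 called genes in each direction that moved alike in every mouse, and the 3 genes most like each member. On simulated counts (7322 to 8820 genes) with 200 changed 8-fold, 59%, 35.5%, 66.5% and 69% were recovered in the sex, Apln, Aplnr and Kit comparisons. The alternatives were RLE factors, library totals, the likelihood ratio test, DESeq2 1.42.0, a lower filter, other cell and split limits, thinning to 100000 reads, no block or plate as block and leaving out mice. Added after seeing the data were arms of at least 5 cells, leaving out cells with mast or with the full list of lymphatic markers, and a scale outside rRNA.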

Additional observations from a re-analysis of the deposited data

Results flagged for a closer look

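The other 7 members were followed across each of the 3 splits, 21 cases in all, and compared between the sexes. In 6 cases, all in the Apln and Kit splits, which rest on male mouse 1 and female mouse 2, the 2 mice moved in opposite directions. In the Aplnr split, with 2 male and 3 female mice, no member moved one way in every male and the other way in every female. In the Apln split, Cd300lg had a log2 ratio of positive over negative cells of 0.54 in mouse 1 and -0.73 in mouse 2 (difference 1.27), and Aqp1 had 0.60 and -0.01 (difference 0.61). In the Kit split, Cd300lg had 0.71 and -0.33 (difference 1.04), Aqp1 had 0.90 and -0.06 (difference 0.96), Car4 had 0.32 and -0.52 (difference 0.84) and Rgcc had 0.50 and -0.14 (difference 0.64). With 1 mouse per sex these differences were not tested. None of 7 groups of 5 mice held a mouse far from the others.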

How the results depend on the processing

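The number of called genes depended on the processing in every comparison. Between the sexes (2 called) the likelihood ratio test gave 58 and DESeq2 126, library totals 4 (1 higher and 3 lower in males), the lower filter 0, cells without mural, lymphatic, macrophage or epithelial markers 0, without adipocyte transcripts 1, without the full list of lymphatic markers 1 and CD31 sorts only 0. Leaving out 1 mouse gave 0 to 601, the highest without mouse 1, where mouse 8 is the lone male and is assumed to vary like the females, and 0 without mouse 2, 5 or 6/7. In the Apln split (0 called) the likelihood ratio test gave 134 and DESeq2 162. In the Aplnr split (5 called) these gave 32 and 81, cells without mural, lymphatic, macrophage or epithelial markers 0, without adipocyte transcripts 14, without the full lymphatic list 0, a split at 5 CPM 1, and leaving out 1 mouse 0 (mouse 5) to 9 (mouse 2), with 2 without mice 6/7. In the Kit split (8 called) RLE factors gave 0, the likelihood ratio test 123, DESeq2 214, cells without mural, lymphatic, macrophage or epithelial markers 4, without adipocyte transcripts 5, without mast cell markers 4, a split at 5 CPM 0 and at 100 CPM 0, thinned cells 14, arms of at least 5 cells 3, and the scale outside rRNA 2. The causes were not tested.

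The replicate block changed calls as well. With no replicate block the Aplnr split had 0 calls and the Kit split 0, and with plate as the block 9 and 0. No paired analysis was possible between the sexes because each mouse has 1 sex. Library totals alone shifted the median of all genes to -0.73 between the sexes and -0.26 in the Apln split, and between the sexes they turned the median of the Kit signalling list from 0.55 to -0.26 and of the arterial list from 0.26 to -0.37, while the tip and sprouting list stayed above 0 (0.34) and the capillary list below (-1.01). In the splits the tip and sprouting list kept a median above 0 and the arterial list below 0 under each scaling. Of 446 recomputed log2 folds of members 411 moved by less than the standard deviation between mice, which is not the SE of the fold. No called value changed direction. Apln between the sexes ran from 1.98 to 4.77, Car4 from -2.56 to -1.54, and Aqp1 across the Aplnr split from 1.26 to 1.64.

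Counting any read as positive raised the shares to 21.7% for Apln, 39.0% for Kit, 12.7% for Esm1 and 70.1% for Aplnr, and 38 of 64 recomputed shares stayed inside their interval. Leaving out a mouse from the Apln and Kit splits left no residual degree of freedom, and the Apln split without adipocyte transcripts could not be fitted. Apln, Kit and Esm1 rest on few positive cells.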
